A study of Mus musculus with 5 samples.

Results

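The genes described here are 9 enzymes of arginine and polyamine metabolism, Arg1, Arg2, Ass1, Asl, Odc1, Nos2, Srm, Sms and Sat1. The array's annotation names 18193 genes alone on a probe set, and 8 of the 9 are among them, all but Sms. They were chosen by symbol, with Arg1 already known to be higher in the sub-lines than in parental cells. Differences of these 9 genes from parental cells are therefore given as a description, with no test, whereas the difference between the sub-lines was tested. In all, 15 probe sets name a member. Of these, 11 name 1 member alone, and 4 name a member together with a pseudogene, namely Ass1 with Gm5424 (1 set) and Sms with Sms-ps (3 sets).

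Arginine can be split by arginase into ornithine and urea, or used by nitric oxide synthase to make nitric oxide. Ornithine decarboxylase turns ornithine into putrescine, from which the polyamines spermidine and spermine are built, and spermidine/spermine acetyltransferase starts their breakdown and export. Arginase 1 is best known from hepatocytes, where it closes the urea cycle, and from alternatively activated macrophages. Argininosuccinate synthase and lyase rebuild arginine from citrulline.

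The cells were NT2.5, a cultured line grown from a mammary tumour of neu-transgenic mice. One array each held wild type (parental) NT2.5 cells, labelled as seeking bone, liver and lung, a bone sub-line at its passages 3 and 6, and a liver sub-line at its passages 1 and 3, with each sub-line labelled by its own site. Values are intensities on a linear scale, and differences are on the log2(intensity + 16) scale, which understates the change of dim genes. The passages of a sub-line stand in for replicates (n = 2), so p-values measure only the spread between successive passages of 1 lineage each, and the lone parental array is assumed to vary as they do.

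The 5 arrays had median intensities of 21.9 to 26.4 over 45101 probe sets, with bone passage 6 the lowest. Of 13 mammary epithelial markers, 12 reached the filter on low values, an intensity of 25.1 on at least 1 array, and their summed intensity was 30871 to 35739. Krt19, a luminal keratin, did not, at 1.5 to 3.3. Of the 9 members, 7 were tested, since Nos2 stayed below this filter and Sms has only shared probe sets. Arg2 reached it on the parental array alone, which favours a higher parental value, and the unshared Ass1 set on 3 arrays. Genes were called with limma at a Benjamini-Hochberg adjusted p under 0.05 over 12609 genes.

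Arg1, the cytosolic arginase, was the member with the widest spread over the arrays. Its intensity was 35.9 in parental cells, 640.1 and 577.6 at bone passages 3 and 6, and 73.8 and 381.4 at liver passages 1 and 3. The parental array was thus the lowest and both bone arrays the highest, with the first liver passage close to the parental array and the later one close to bone. Bone passages 3 and 6 were 3.66 and 3.52 above parental on the log2 scale, and liver passages 1 and 3 were 0.79 and 2.94 above it. With 16 added to each intensity, the bone mean was 12.0-fold above parental cells (log2 difference 3.59 ± 0.78, SE, n = 2 passages and 1 parental array) and the liver mean 3.64-fold (1.86 ± 0.78). In intensity alone, bone passages 3 and 6 were 17.8-fold and 16.1-fold above parental, and liver passage 3 was 10.6-fold above it. On the log2(intensity + 16) scale Arg1 was at least 2-fold above parental on 3 of the 4 sub-line arrays, and the fourth, liver passage 1, was 2.06-fold above it in intensity alone. On that log2 scale at least 2-fold above parental were 2.43% of all genes tested at bone passage 3, 1.47% at bone passage 6, 1.93% at liver passage 1 and 2.19% at liver passage 3. Because the members were chosen with this contrast known, nothing is read from these shares. In RNA of whole cultures, fewer cells that express a gene and less RNA of it per cell cannot be told apart.

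Between the sub-lines, Arg1 was 3.30-fold higher in bone (a log2 difference of 1.72 with an SE of 0.64, n = 2 passages on each side, 95% interval 0.18 to 3.27 before adjustment). It did not pass (limma adjusted p = 0.307, and 0.138 to 0.476 over the alternatives). Leaving out the first liver passage gave 0.65, and leaving out the later one gave 2.80. At passage 3, the number both sub-lines share, bone was 0.72 above liver on the log2 scale, less than the 2.15 between the liver passages. From liver passage 1 to 3 Arg1 had the fourth highest positive difference of the 12609 genes (rank 4, 4.43-fold), with 1 array each and no replicate check. At least 2-fold higher at liver passage 3 than at passage 1 were 1.68% of genes. Bone passages 3 and 6 differed by only -0.14.

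**Figure D1:**
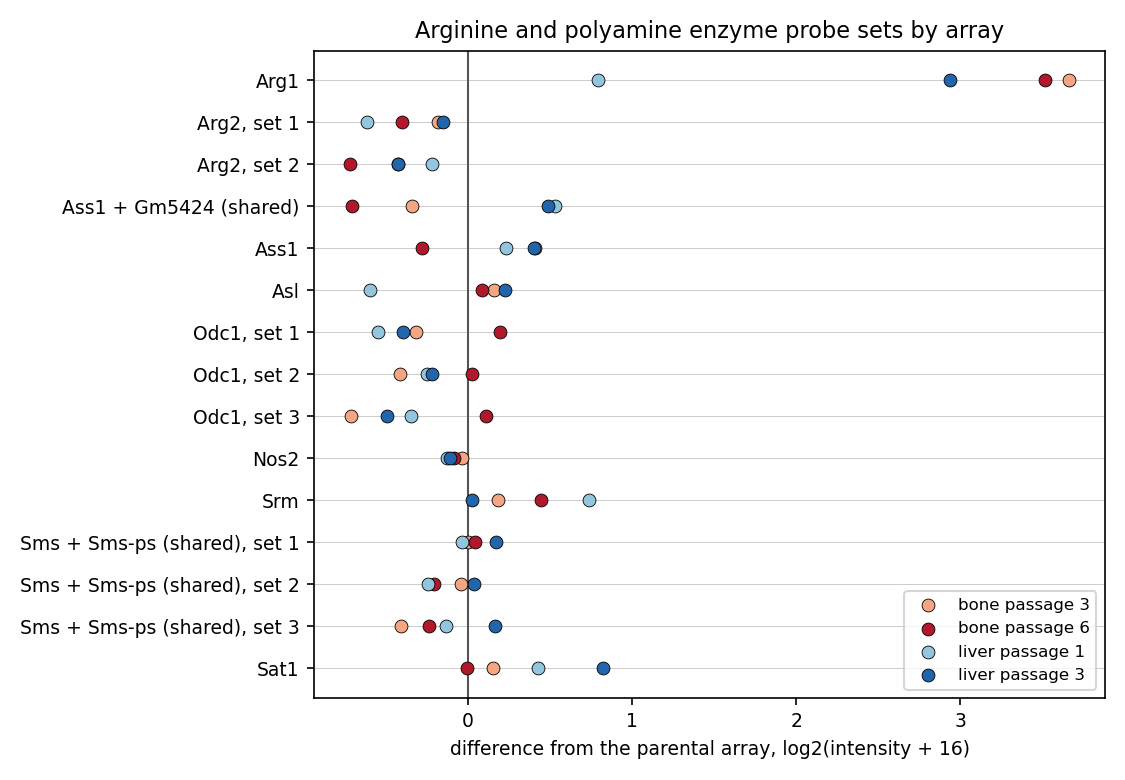
Difference of each sub-line array from the parental array on the log2(intensity + 16) scale, for the 15 probe sets that name a member, with 1 point per array. Arg1 lies 0.79 to 3.66 above parental, while the other probe sets lie within 0.82 of it, and the set shared by Ass1 and Gm5424 has both bone arrays below and both liver arrays above parental.

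Markers of cells known for arginase 1 were read beside it. Albumin (Alb), the main hepatocyte plasma protein, was at 15.8 in parental cells and at 2.4, 3.7, 4.8 and 10.1 in the sub-lines, in the order bone passages 3 and 6, liver passages 1 and 3. The urea cycle enzyme Cps1 was at 11.7 to 23.9. G6pc, Ttr and Tat, the widest-ranging hepatocyte markers, were unlike Alb higher on some sub-line arrays than in parental cells. With parental cells first and the sub-lines in that order, G6pc was at 1.6, 20.7, 15.9, 20.8 and 3.6. Ttr was at 0.7, 1.1, 0.7, 17.0 and 4.2, and Tat at 15.3, 18.4, 5.7, 25.2 and 23.9. Of 16 hepatocyte markers, 11 stayed below the filter on every array, and their summed intensity was 237.5 in parental cells, 171.5 to 224.4 in bone and 233.2 to 257.6 in liver. Of 11 markers of alternatively activated macrophages, 10 stayed below the filter on every array. Their sum was 118.9 in parental cells, 86.4 to 119.0 in bone and 143.2 to 178.5 in liver. Mrc1, the mannose receptor, was at 16.3 in parental cells, 12.7 and 14.4 in bone and 24.9 and 18.9 in liver. The widest-ranging of these markers moved in different directions. In the same order of arrays, Mgl2 was at 2.9, 13.7, 1.9, 22.9 and 10.6. Ccl17 was at 25.0, 4.1, 3.7, 9.7 and 21.6, and Retnla at 2.5, 16.5, 5.0, 6.5 and 7.5.

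General macrophage and monocyte markers (20 genes, 14 reaching the filter) summed to 709.5 in parental cells, 951.6 to 1328 in bone and 944.1 to 1209 in liver, so that all 4 sub-line arrays were above the parental array, as for Arg1. Their part in the Arg1 values was not tested. Cd14, which epithelial cells can also express, made up 336.0 of the parental sum and 450.2 and 928.2 of the sums at bone passages 3 and 6. In the sums of liver passages 1 and 3 it made up 212.2 and 242.0, below its parental value. The complement gene C1qa, a defining marker of tissue macrophages, was at 56.1 on the array of liver passage 1 and at 0.9 to 1.2 on the others, and Lyz2, a lysozyme of myeloid cells, was at 140.4 there and at 22.7 to 42.2 elsewhere. That array had the lowest Arg1 of the sub-lines. Itgam, the integrin CD11b of myeloid cells, stayed below the filter at 0.5 to 8.8. Csf1r, the receptor of macrophage colony-stimulating factor, was at 67.6 in parental cells, 89.3 and 107.3 in bone and 168.7 and 220.0 in liver. Cd68, a lysosomal protein of macrophages, was at 52.1, 103.2, 74.8, 173.1 and 172.0 in the same order. These genes were thus above parental on all 4 sub-line arrays and highest in liver, whereas C1qa was near 0 in bone. Neutrophil and myeloid precursor markers (12 genes, 7 reaching the filter) summed to 11790 in parental cells, 9284 to 11362 in bone and 9293 to 9315 in liver, nearly all of it Lcn2 and Ltf, which mammary epithelium also makes. Osteoclast markers (8 genes, 4 reaching the filter) summed to 586.2 in parental cells, 486.1 to 622.6 in bone and 599.5 to 627.2 in liver.

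**Figure D2:**
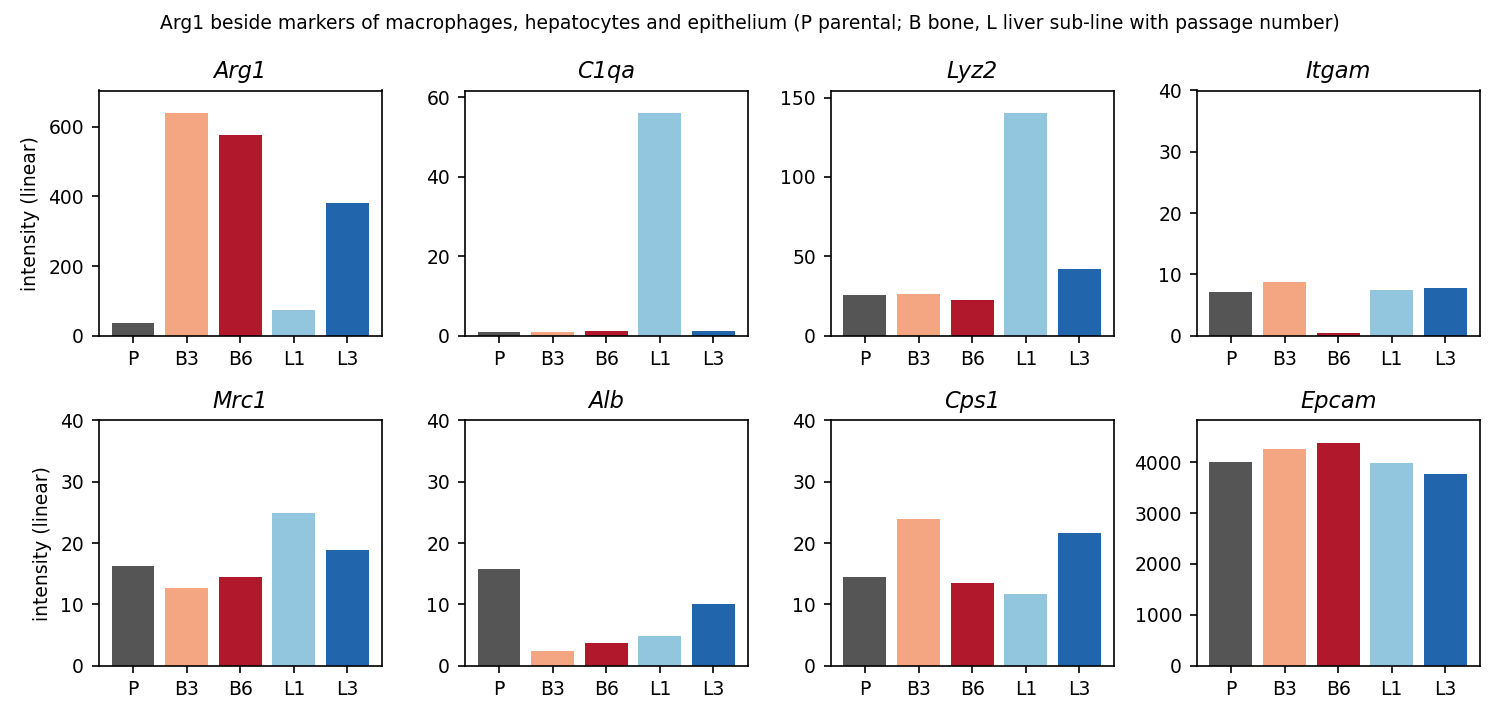
Linear intensity of Arg1 and of 7 marker genes on the 5 arrays, 1 bar per array, each gene on its own axis from 0. Arg1 is highest in bone (640.1 and 577.6), C1qa and Lyz2 are highest at liver passage 1 (56.1 and 140.4), Alb and Cps1 stay under 25.1, and the epithelial gene Epcam is between 3761 and 4384.

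Arg2 encodes the mitochondrial arginase. Its first probe set was at 26.1 in parental cells, 21.1 and 15.9 in bone and 11.5 and 21.9 in liver, and its second at 26.4, 15.5, 9.8, 20.4 and 15.5 in the same order. Both sets were dim on every array and reached the filter on the parental array alone. That favours a higher parental value, and nothing is read from their differences from parental cells. The bone minus liver difference was 0.09 ± 0.23 (limma adjusted p = 0.883, 95% interval -0.46 to 0.64), and its sign differed between the sets, with -0.25 ± 0.21 for the second. The sub-line arrays lay 0.15 to 0.72 below parental over both sets. High sub-line values such as those of Arg1 were not seen for Arg2.

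Nos2, the inducible nitric oxide synthase that competes with arginase for arginine, was at 2.7 in parental cells, 2.2 and 1.6 in bone and 1.1 and 1.3 in liver. All 5 values lie below the filter, and no fold is given.

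Ass1, which encodes argininosuccinate synthase, had its clearest signal on the set it shares with Gm5424, a transcribed pseudogene in RefSeq. This set was at 962.3 in parental cells, 757.8 and 584.1 in bone and 1396 and 1355 in liver. Both bone arrays were below and both liver arrays above the parental array, so the sub-lines did not overlap. Wherever parental lay, both bone arrays were below both liver arrays for 25.9% of the 12609 genes tested. Fitted with all probe sets one by one, bone was 1.03 ± 0.21 below liver on the log2 scale (n = 2 passages per sub-line) and did not pass (limma adjusted p = 0.132, and 0.0741 to 0.363 over its alternatives). It was -0.85 to -1.21 without 1 array in turn. What the pseudogene adds to this signal was not tested. The unshared Ass1 set, which was dim, was at 19.6 in parental cells, 31.2 and 13.3 in bone and 25.8 and 31.1 in liver, and there the sub-lines overlapped (-0.25 ± 0.27, limma adjusted p = 0.699).

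On Sat1 and on the shared Ass1 set both bone arrays were below both liver arrays, and the 250 bases before the RefSeq start of these genes (build GRCm38.p6) are shown as examples. One of the 3 Sms sets had the same order of arrays and the other 2 did not, and its window is not shown. Capitals mark matches to CACGTG (the E-box, bound by MYC and related factors) or GGGCGG (the GC box). CCAAT and TATAAA were searched too, all on both strands, and none of these motifs contains another.
Ass1, chr2:31470020-31470269, plus strand: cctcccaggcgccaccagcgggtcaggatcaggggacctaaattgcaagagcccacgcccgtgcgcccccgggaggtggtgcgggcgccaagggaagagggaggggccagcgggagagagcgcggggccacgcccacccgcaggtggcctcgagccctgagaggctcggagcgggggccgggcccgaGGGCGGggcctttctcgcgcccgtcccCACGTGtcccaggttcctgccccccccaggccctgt
Sat1, chrX:155216450-155216699, minus strand: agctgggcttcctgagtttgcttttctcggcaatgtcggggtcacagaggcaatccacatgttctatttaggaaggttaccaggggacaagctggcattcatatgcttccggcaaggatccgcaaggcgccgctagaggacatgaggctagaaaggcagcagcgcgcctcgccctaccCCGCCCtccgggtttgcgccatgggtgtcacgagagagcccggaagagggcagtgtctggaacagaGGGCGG

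The Ass1 window holds 1 E-box, 36 to 31 bases before the start, and 1 GC box. The Sat1 window holds GC boxes on each strand and no E-box. Of 32851 such windows of this length, 6.02% hold an E-box and 32.7% a GC box, while CCAAT is in 33.8% and TATAAA in 12.4%, and neither is in these windows. A match is a run of letters and was not tested for binding.

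Asl, which encodes argininosuccinate lyase, the next enzyme, was at 261.6 in parental cells, 294.2 and 278.3 in bone and 167.5 and 308.0 in liver. Liver passage 1 was the low array and the other 4 lay close together. Bone minus liver was 0.31 ± 0.29 (limma adjusted p = 0.668, 95% interval -0.40 to 1.02) and -0.10 without liver passage 1.

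Odc1, ornithine decarboxylase, the rate-limiting step into polyamines, has 3 probe sets. The one that stood for the gene was at 2497 in parental cells, 1867 and 2540 in bone and 2096 and 2142 in liver. On all 3 sets, bone passage 6 lay 0.44 to 0.82 above bone passage 3 and slightly above parental, while bone passage 3 and both liver arrays lay below parental. Bone minus liver was 0.04 ± 0.21 (limma adjusted p = 0.950, 95% interval -0.48 to 0.56) and 0.04 to 0.41 over the 3 sets.

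Srm, spermidine synthase, was at 665.2 in parental cells, 758.9 and 912.5 in bone and 1119 and 676.9 in liver. The liver passages enclosed both bone values. Bone minus liver was -0.06 ± 0.28 (limma adjusted p = 0.936, 95% interval -0.74 to 0.61).

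Sms, spermine synthase, can be read only from the 3 sets it shares with the pseudogene Sms-ps. The first was at 729.4 in parental cells, 728.2 and 751.1 in bone and 710.5 and 824.0 in liver. Another set was at 301.1 in parental cells, 223.3 and 252.5 in bone and 273.5 and 339.8 in liver, with both bone arrays below both liver arrays, which on the other sets overlapped. Over the 3 sets every sub-line array lay between -0.41 and 0.17 of parental, and bone minus liver was -0.05 ± 0.19, -0.02 ± 0.20 and -0.34 ± 0.20, with limma adjusted p from 0.504 to 0.974 in the fit of all probe sets one by one.

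Sat1, the acetyltransferase that marks spermidine and spermine for breakdown or export, was at 774.4 in parental cells, 861.8 and 772.2 in bone and 1047 and 1380 in liver. Both liver arrays were above both bone arrays and above parental. Bone was 1.46-fold below liver (log2 difference -0.55 ± 0.21, 95% interval -1.06 to -0.036 before adjustment) and did not pass (limma adjusted p = 0.330, and 0.230 to 0.712 over the alternatives). The value was -0.35 to -0.75 without 1 array in turn. Its promoter window is the one printed beside that of Ass1.

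**Figure D3:**
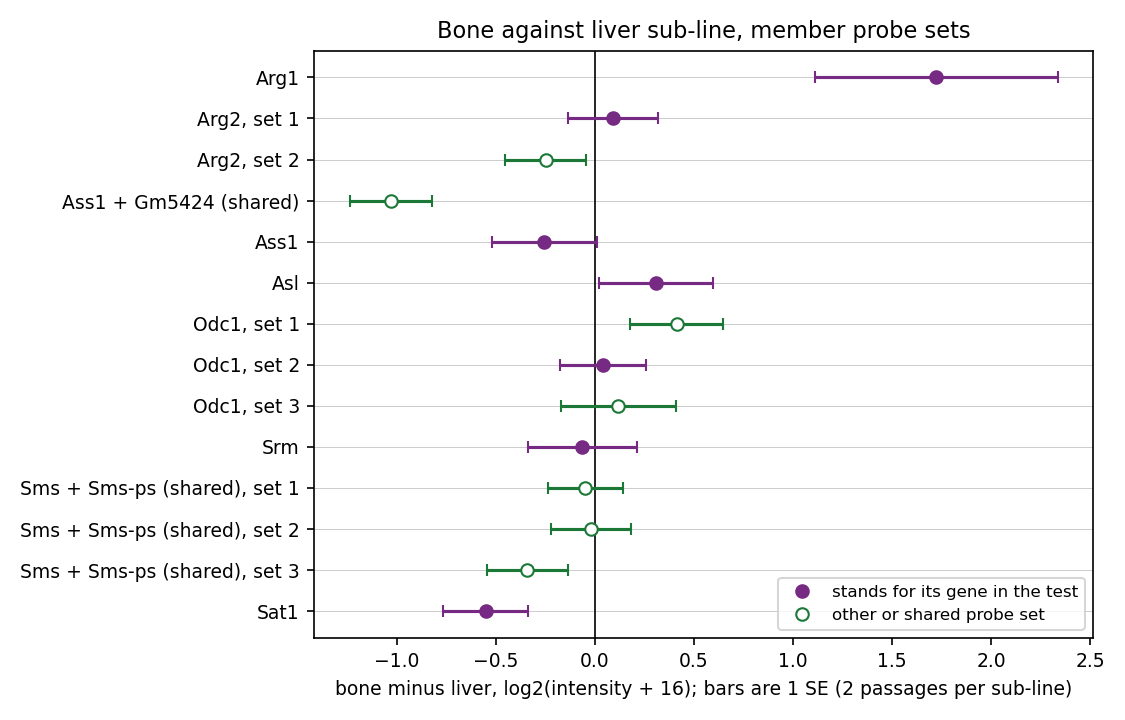
Bone minus liver difference on the log2(intensity + 16) scale for the 14 member probe sets that reached the filter, from the fit of all probe sets one by one, with bars of 1 SE (n = 2 passages per sub-line). Arg1 is farthest above 0 (1.72) and the set shared by Ass1 and Gm5424 farthest below (-1.03), and 0 of the sets passed the threshold.

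Of the 7 members tested, limma called 0 between bone and liver, where 0.19% of all genes were called (24 of 12609), and 2 had an unadjusted p under 0.05, Arg1 and Sat1, as did 14.1% of all genes. The members' median difference was 0.04 and that of all genes -0.02. Both bone arrays were above both liver arrays for 1 of the 7, Arg1, against 21.2% of all genes, and below them for 1, Sat1, against 25.9%. All 4 sub-line arrays were above parental for 2 of the 7, Arg1 and Srm, where 17.6% of all genes were, and nothing is read from that share. Members other than Arg1 had bone minus parental differences from -0.29 to 0.32 and liver minus parental differences from -0.38 to 0.62, with no test. The low end of each range is Arg2, which reached the filter on the parental array alone. The members' median difference from parental was 0.07 in bone and 0.32 in liver, beside -0.02 and 0.01 for all genes.

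Around the 9 enzymes, 86 other genes on 7 lists were examined, of which 76 had a probe set of their own and 67 were tested. Limma called 0 of the 67 in any comparison. The shares of all genes called were 0.19% for bone against liver, 0.135% for bone against parental and 0.0159% for liver against parental. At an unadjusted p under 0.05 were 11, 7 and 5 of the 67 in these comparisons, beside 14.1%, 8.17% and 7.49% of all genes, so the counts lie near the background. The median difference of the 67 was 0.13, -0.00064 and -0.07 in these comparisons, against -0.02, -0.02 and 0.01 for all genes.

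Arginine supply and urea cycle genes (8 of 12 tested) had a bone minus liver median of 0.08. Slc7a1, the main cationic amino acid transporter that brings arginine into cells, was at 1054 in parental cells, 791.2 and 873.4 in bone and 1704 and 885.4 in liver, highest at liver passage 1. The mitochondrial entry enzymes of the urea cycle, Cps1 and Otc, were below the filter.

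The ornithine, proline and creatine branches (9 of 12 tested) had a bone minus liver median of 0.22. Gatm, which uses arginine in the first step of creatine synthesis, was at 60.6 in parental cells, 46.6 and 64.1 in bone and 19.3 and 14.7 in liver. Both liver arrays were the lowest, with bone minus liver 1.11 ± 0.21 (limma adjusted p = 0.128) and liver minus parental -1.22 ± 0.26 (adjusted p = 0.300). Both liver values lie under the filter level of 25.1, so the size of these differences depends on the 16 added to each intensity. Oat, which turns ornithine towards proline and glutamate, was at 535.7 in parental cells, 459.8 and 654.1 in bone and 322.8 and 568.6 in liver, and there the sub-lines overlapped. At an unadjusted limma p under 0.05 for bone against liver were 4 of the 9, beside 14.1% of all genes. These were Gatm, Prodh (0.94 ± 0.21) and Aldh4a1 (0.74 ± 0.24), higher in bone, and Gamt (-0.62 ± 0.25), lower in bone. Prodh was at 139.3 in parental cells, 230.4 and 246.2 in bone and 137.5 and 97.7 in liver. None passed after adjustment.

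Control of polyamine synthesis (8 of 10 tested) had a median of 0.18. Oaz1, the antizyme that sends ornithine decarboxylase to degradation, was at 4958 in parental cells, 4428 and 5127 in bone and 3332 and 4342 in liver. Its opponent Azin1, the antizyme inhibitor, was at 767.1, 607.1, 658.6, 1073 and 723.1 in the same order, highest at liver passage 1. Eif5a2, a paralogue of the hypusine-carrying factor that spermidine modifies, was dim at 3.8 in parental cells, 18.6 and 4.6 in bone and 21.4 and 37.5 in liver. Liver minus parental was 1.18 ± 0.38 (limma adjusted p = 0.561). This set reached the filter at liver passage 3 alone, which favours a higher liver value, and nothing is read from that difference. The second Eif5a2 set stayed below the filter, at 5.6 in parental cells, 1.5 and 7.4 in bone and 10.1 and 5.7 in liver.

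Polyamine breakdown and transport (7 of 12 tested) had a median of 0.14 for bone against liver, and of -0.27 and -0.32 for bone and liver against parental. Smox, spermine oxidase, was at 1550 in parental cells, 847.6 and 561.3 in bone and 980.0 and 665.1 in liver. All 4 sub-line arrays were below parental, by 1.15 ± 0.35 in bone (limma adjusted p = 0.420) and 0.93 ± 0.35 in liver (adjusted p = 0.625), neither of which passed. A second, dim Smox set had the same order of parental above all sub-lines, at 32.5 against 7.9 to 13.6.

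Methionine salvage and S-adenosylmethionine supply (8 of 9 tested) had medians of 0.22 for bone against liver, 0.26 for bone against parental and 0.10 for liver against parental. Mtap, which recycles the by-product of polyamine synthesis, was at 2169 in parental cells, 2757 and 4105 in bone and 2343 and 3093 in liver. On this set, 1 of 4 for the gene, parental cells were thus the lowest and the sub-lines overlapped.

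Nitric oxide synthesis and control (10 of 11 tested) had medians of 0.12, -0.04 and -0.43 in the same order of comparisons. Gch1, which makes the cofactor of nitric oxide synthases, was at 567.8 in parental cells, 331.9 and 174.5 in bone and 572.7 and 249.7 in liver, with bone minus parental -1.18 ± 0.54 (limma adjusted p = 0.658). A second Gch1 set was at 182.8 in parental cells, 105.0 and 55.2 in bone and 319.3 and 108.7 in liver. There liver passage 1 was well above parental, and bone minus liver was -1.14, against -0.62 on the first set. On both sets the later passage of each sub-line was lower than the earlier one.

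Factors known to act on Arg1, Nos2 or Odc1 (17 of 20 tested) had a bone minus liver median of -0.18. Cebpa, a C/EBP factor of liver and myeloid cells, was at 85.5 in parental cells, 16.4 and 24.2 in bone and 82.1 and 63.2 in liver. Both bone arrays were the lowest, with bone minus liver -1.29 ± 0.21 (limma adjusted p = 0.103) and bone minus parental -1.49 ± 0.26 (adjusted p = 0.153). Both bone values lie under the filter level of 25.1, so the size of these differences also depends on the 16 added. Mycn was at 94.2 in parental cells, 39.2 and 17.8 in bone and 29.6 and 58.9 in liver, with bone minus parental -1.35 ± 0.41 (limma adjusted p = 0.417). Another Mycn set that reached the filter had a different order, at 35.0 in parental cells, 24.9 and 8.2 in bone and 31.9 and 79.5 in liver, with liver passage 3 and not parental the highest. The remaining Mycn set had parental highest, at 28.0, against 1.4 and 1.3 in bone and 1.2 and 15.9 in liver. It reached the filter on the parental array alone, which favours a higher parental value. Stat6, which carries interleukin 4 and 13 signals, was at 521.4, 649.2, 506.4, 538.7 and 518.5 in the order parental, bone passages 3 and 6, liver passages 1 and 3. The receptor genes of these signals on the list were lower on both bone arrays than on both liver arrays. In the same order, Il13ra1 was at 287.7, 204.8, 172.4, 392.0 and 388.6 (bone minus liver -0.99 ± 0.19, limma adjusted p = 0.127). Il4ra was at 96.6, 71.8, 34.9, 83.9 and 87.8 (-0.61 ± 0.28, limma adjusted p = 0.394), and neither passed. Myc, which acts on Odc1, was at 745.5, 819.6, 833.0, 1212 and 539.1, highest at liver passage 1 and lowest at liver passage 3.

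**Figure D4:**
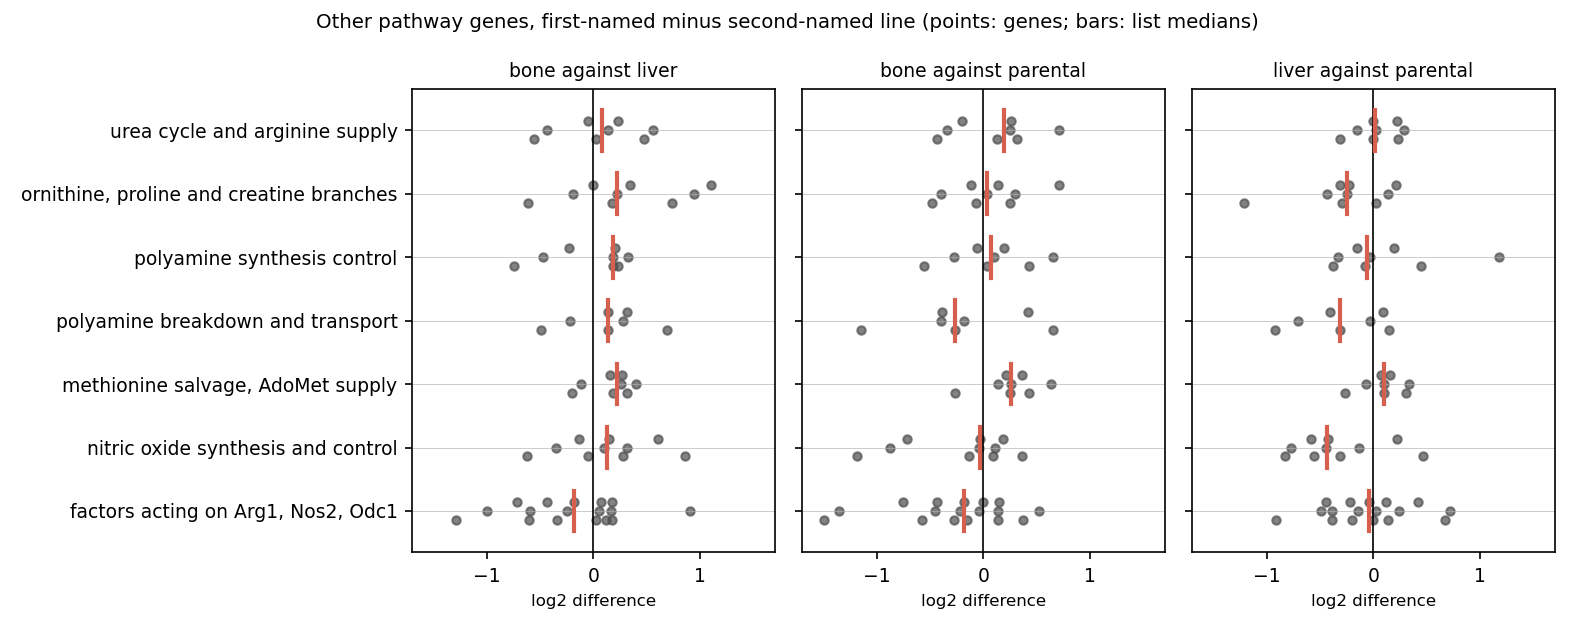
Log2 differences of the 67 tested genes of 7 related lists in 3 comparisons, 1 point per gene, with a bar at each list's median. Medians lie between -0.43 and 0.26, and 0 genes passed the threshold in any panel.

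The 5 named genes whose profiles were most like that of Arg1 over the 5 arrays, by root mean square distance between profiles with their own means taken off, were Akr1b8, Pamr1, Il33, Gstp3 and Cytip. Their distances were 0.45, 0.59, 0.59, 0.60 and 0.62 on the log2 scale. Akr1b8, an aldo-keto reductase, was at 58.9 in parental cells, 360.1 and 636.9 in bone and 95.4 and 388.1 in liver. The cytokine gene Il33 was at 69.6, 470.3, 312.9, 111.6 and 300.5 in the same order. Like Arg1, both had the parental array lowest, liver passage 1 next, and the other 3 arrays well above.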

How the data were processed

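RNA was measured in 5 samples on 1-colour Affymetrix Mouse Genome 430 2.0 arrays. The authors deposited 45101 linear intensities per array. RMA is named, without a version, in the submitters' processing notes, yet the values are not on the log2 scale that method gives. Each array had a 2% trimmed mean of 150.001. Further steps are not given in the sources used here.

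Intensities were converted to log2(intensity + 16). Control probe sets (64) and those with several genes (932) or no listed gene (9211) were left out, and 34754 probe sets matched RefSeq by gene identifier, with 0 symbols changed. Probe sets whose highest value was under the median of all values, 25.1, were left out, and the one with the highest mean log2 value stood for its gene. Genes were tested with limma 3.58.1 (lmFit, eBayes) in R 4.3.3 over the 5 arrays with 3 lines as groups (2 residual degrees of freedom, prior 4.2) and Benjamini-Hochberg adjustment, and the fit was tested on simulated data. The number of arrays limits the precision.

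The members and lists were chosen with earlier results of these data known. Named were all member probe sets, called list genes and up to 3 per list with a difference of at least 1 (log2), and the 5 genes most like Arg1. Of the markers, defining ones and some of the widest-ranging were named, and other wide-ranging ones, such as C1qb, were not. Slc7a1, Oat, Prodh, Aldh4a1, Gamt, Oaz1, Azin1, Mtap, Stat6, Il4ra, Il13ra1, Myc, Cd14 and Cd68 were chosen after their values were seen. Mtap has 4 probe sets, Slc7a1, Azin1 and Il4ra have 3 each, Stat6 has 2 and Il13ra1 has 5. Of each of these genes, only the set that stood for it is described. The alternatives were other filters, pseudocounts and scalings, averaged probe sets, a mean-variance trend, the stage as a block and each sub-line array left out. The fit of all probe sets one by one was added after seeing the data.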

Additional observations from a re-analysis of the deposited data

Results flagged for a closer look

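The probe set shared by Ass1 and Gm5424 differed in direction between the sub-lines, with both bone arrays below and both liver arrays above the parental array. Bone minus liver was -1.03 on the log2 scale and did not pass (limma adjusted p = 0.132). Both bone arrays were below both liver arrays for 25.9% of all genes tested. How many of those had parental in between was not counted.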

How the results depend on the processing

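In all 14 alternatives for bone against liver, and 13 for each comparison with parental cells, limma called 0 of the pathway list genes, and 0 members for bone against liver. The Arg1 difference from parental was 2.75 in bone with a pseudocount of 64 and 4.04 with a pseudocount of 1. Without 1 array in turn it was 3.52 to 3.66 in bone and 0.79 to 2.94 in liver, and for bone against liver 0.65 to 2.80. The count of genes called for bone against liver, 24, was 0 with no filter or a pseudocount of 1 (2154 and 1581 at an unadjusted p under 0.05), 39 with a filter on the mean, 61 with median centring, 15 with averaged probe sets, 52 with a trend, 36 with all probe sets, 161 with the stage as a replicate block and 0 to 75 without 1 array (75 and 53 when bone passage 3 or 6 was left out, 0 when liver passage 1 or 3 was, with 1325 and 2020 at an unadjusted p under 0.05). For bone against parental, 17 became 1 with no filter or a pseudocount of 1, 37 with median centring, 9 with averaged probe sets, 31 with a trend, 28 with all probe sets and 8 to 52 without 1 array (52 and 47 without bone passage 3 or 6, 8 without either liver passage). For liver against parental, 2 became 1 with no filter or a pseudocount of 1, 5 with a pseudocount of 64, 6 with median centring, 7 with a trend or all probe sets and 0 to 38 without 1 array (38 without either bone passage, and 0 without liver passage 1 or 3, with 898 and 1231 at an unadjusted p under 0.05). The causes were not tested. The replicate numbers do not pair the samples, and the block changed no member's call. Small differences between bone and liver turned sign for Arg2 (-0.078 with averaged probe sets), Odc1 (-0.053 with quantile normalization) and Srm (0.0088 with median centring). Without 1 array, the ranges were -0.14 to 0.32 for Arg2, -0.60 to 0.089 for Ass1, -0.10 to 0.72 for Asl, -0.18 to 0.26 for Odc1 and -0.42 to 0.29 for Srm.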
